A study of Mus musculus with 8 samples.

Results

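The phagocyte NADPH oxidase was followed through 5 of its genes, Cybb, Cyba, Ncf1, Ncf4 and Rac2, in sorted bone marrow cells, called leukemic stem cells (LSCs) in the study, of mice with chronic myeloid leukemia (CML). The genes were taken by symbol from a table of 15576 rows, in which all 5 were found, all 5 had counts above 3 in each of the 8 libraries, and all 5 were among the 11937 genes with enough counts to be tested. The rule takes rows by gene name, but the genes were proposed with earlier results of these data known. The study compared bulk RNA-seq of sorted bone marrow cells from untreated CML mice (CML) and from CML mice given imatinib, a tyrosine kinase inhibitor (CML-TKI), to ask what sets apart the cells that persist through treatment. There were 4 libraries in each group. All mice were C57BL/6 by the labels and carried BCR-ABL under SCL-tTA control, so that the oncogene is on in stem cells once tetracycline is withdrawn. The CML-TKI mice had received 400 mg/kg of imatinib by gavage on alternate days for 4 weeks (30 days in another label) according to the labels, whereas the text of the study gives a lower dose for the mice of this RNA-seq. Age and the number of mice behind a library are not given in the sources used here, so the p-values measure the spread between these libraries.

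The oxidase makes superoxide from oxygen with electrons taken from NADPH, and it is best known as a weapon of neutrophils and macrophages against microbes. Its membrane part, flavocytochrome b558, joins the catalytic chain gp91phox, encoded by Cybb, to the smaller chain p22phox, encoded by Cyba. At rest the other subunits wait in the cytosol. On activation p47phox (Ncf1) and p40phox (Ncf4) move to the membrane and the GTPase Rac2 joins them there. Loss of phox subunits causes chronic granulomatous disease, and in marrow the genes are known to be switched on as progenitors mature toward granulocytes and monocytes.

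Before the members, 1 check of the sorted cells is needed. The labels describe both groups as lineage-negative, Sca1+, cKit+, Flt3-, CD150-, CD48+ cells, whereas the text of the study defines LSCs by the opposite CD150 and CD48 gate. Kit was lower in every CML-TKI library (247 ± 43.9 CPM against 932 ± 119 CPM, SD, n = 4 each), Slamf1, which encodes CD150, was 3.31 ± 2.72 CPM against 32.2 ± 3.71 CPM, and Cd48 was 103 ± 56.5 CPM against 5.01 ± 1.23 CPM. The CML libraries thus had Slamf1 and little Cd48, against the labelled gate, and the CML-TKI libraries had the reverse. Ly6a, which encodes Sca1, had 33.0 to 38.2 CPM in CML and 44.0 CPM in CML-TKI 1, but 9.54, 8.71 and 1.55 CPM in CML-TKI 2, 3 and 4, against the labelled Sca1+ gate (adjusted p = 0.373, and 0.0117 without CML-TKI 1). The stem cell genes Hlf and Mecom were at 4.39 to 7.62 CPM and 0 to 14.2 CPM in CML-TKI 2 to 4, against at least 254 CPM and 74.8 CPM in CML. The libraries are therefore named by group below, not as LSCs. CPM are counts scaled to library size with trimmed-mean (TMM) factors. In bulk RNA, more cells of a type and more RNA per cell cannot be told apart. Library totals were 4939644 to 8620101 counts in CML and 1041552 to 5104268 in CML-TKI, with CML-TKI 3 the shallowest, and 3 counts equal 0.348 to 0.607 CPM and 0.588 to 2.88 CPM of unscaled totals, respectively, for counting error only. The fourth CML column carries the number 5, which no label has, and is called CML 5. Counts of CML 1, 2 and 3 were far closer to each other than those of any other pair within a group, and whether they are separate animals is not given, so n = 4 for CML counts libraries. With these 3 summed, 122 genes were called. The number of genes called was 1220, but 2504 without CML-TKI 1 and 505 without CML 1.

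Regulatory sequence was at hand for 3 of the 5 members in the RefSeq promoter table (GRCm38.p6), and it is shown here for the chains of the flavocytochrome and for the organizer that docks on them. Each run covers 250 bases before to 30 bases after the annotated start of transcription on the minus strand, 5′ to 3′: chrX:9469295-9469574 for Cybb, chr5:134229596-134229875 for Ncf1 and chr8:122432911-122433190 for Cyba. The RefSeq start used for Cybb lies inside the span annotated for the gene. Capitals mark matches to GAGGAA, the core of sites for the myeloid factor PU.1, to TTCNNNGAA, the spaced repeat that STAT proteins recognise, or to the CCAAT box, each searched on both strands.
Cybb: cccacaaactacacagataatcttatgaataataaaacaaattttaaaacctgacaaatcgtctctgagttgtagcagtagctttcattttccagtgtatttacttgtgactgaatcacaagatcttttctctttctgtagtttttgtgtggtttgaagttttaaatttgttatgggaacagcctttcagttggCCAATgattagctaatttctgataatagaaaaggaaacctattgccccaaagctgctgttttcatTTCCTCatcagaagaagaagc
Ncf1: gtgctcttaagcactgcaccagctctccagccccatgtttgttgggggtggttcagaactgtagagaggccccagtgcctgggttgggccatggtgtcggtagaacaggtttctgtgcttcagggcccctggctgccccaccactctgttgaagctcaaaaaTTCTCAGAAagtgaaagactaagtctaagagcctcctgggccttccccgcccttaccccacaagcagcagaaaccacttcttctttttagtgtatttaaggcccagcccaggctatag
Cyba: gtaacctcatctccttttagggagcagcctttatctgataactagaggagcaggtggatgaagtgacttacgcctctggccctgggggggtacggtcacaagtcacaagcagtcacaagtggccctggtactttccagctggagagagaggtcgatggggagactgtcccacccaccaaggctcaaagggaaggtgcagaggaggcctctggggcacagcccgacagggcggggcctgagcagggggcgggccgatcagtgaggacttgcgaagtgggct
In Cybb the GAGGAA core was found on the opposite strand (read as TTCCTC) from base 10 after the start, and a CCAAT box began 56 bases before it. In Ncf1 the only match was to the STAT repeat, beginning 88 bases before the start. In Cyba none of the 3 motifs was found in this window. The matches did not overlap each other. Among 32851 promoter windows of the same length, 26% held GAGGAA, 7.83% the STAT repeat and 36.1% the CCAAT box. These are matches of letters, and no binding was measured in the files used here.

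The 5 members did not change to the same extent. Transcripts of the catalytic chain and of the cytosolic subunits p47phox and p40phox were 15.6-fold to 28.8-fold higher in CML-TKI cells than in CML cells, with no overlap between the groups. Cyba was 2.85-fold higher, with overlapping libraries, and Rac2 did not pass the test. By edgeR's quasi-likelihood test 4 of the 5 members had an adjusted p under 0.05, all 4 higher in CML-TKI, where 6.29% of all genes tested were called in that direction and 3.93% in the other. Over all genes 751 were called higher and 469 lower, a split that became 601 and 585 with totals without Rn45s as scaling, 639 and 574 with upper quartile, and 1171 and 1333 without CML-TKI 1. For 3 of the 5, every CML-TKI library lay above every CML library, which held for 10.3% of all genes tested. Since the members were proposed with results known, these shares are set side by side as a description. The median log2 fold change over all genes was close to 0, and under no other scaling did a member change direction.

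**Figure D1:**
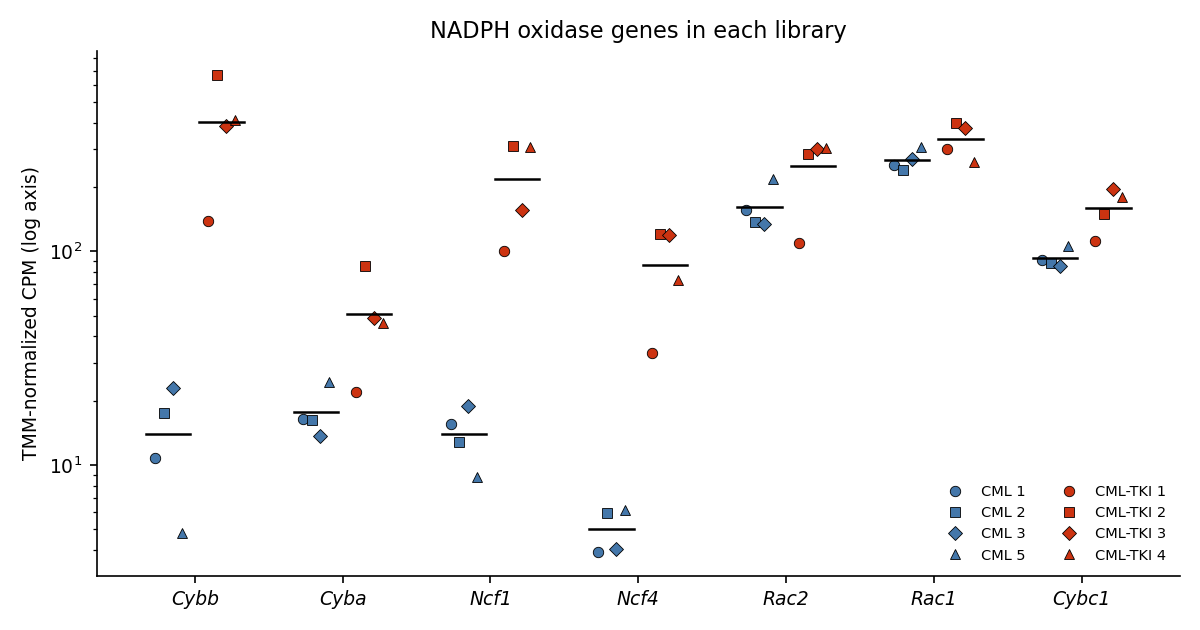
TMM-normalized CPM on a log axis for the 5 members and for Rac1 and Cybc1, with each of the 8 libraries as a point (blue, CML, red, CML-TKI, the shape marks the library) and the group mean as a line. Cybb, Ncf1 and Ncf4 show a gap between the groups, and CML-TKI 1 (red circle) is the lowest CML-TKI library for all 5 members.

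Cybb encodes gp91phox, the chain that carries the haem and flavin and passes the electrons (chromosome X of GRCm38, 9435252 to 9487766). Its CPM were 10.8, 17.4, 23.0 and 4.78 in CML 1, 2, 3 and 5 and 138, 672, 387 and 412 in CML-TKI 1, 2, 3 and 4. The lowest CML-TKI library was still 6.00 times the highest CML library. Within each group the highest and lowest libraries differed by 4.82-fold (CML) and 4.86-fold (CML-TKI), the widest spread of the 5 members in both groups. Mean CPM were 14.0 ± 7.93 and 402 ± 218 (SD, n = 4 each), a log2 fold change of 4.85 (standard error 0.61, 95% interval 3.49 to 6.21, adjusted p = 0.00151, edgeR).

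Ncf1 encodes p47phox, the organizer that is phosphorylated on activation and then docks on p22phox (chromosome 5, 134220053 to 134229628). It had 15.6, 12.8, 18.8 and 8.74 CPM in CML 1, 2, 3 and 5 and 100.4, 310.03, 156 and 307 CPM in CML-TKI 1 to 4. The CML libraries stayed below 20 CPM, and CML-TKI 1, the lowest of its group, was 5.34 times the highest of them. The log2 fold change was 3.97 (standard error 0.43, 95% interval 3.001 to 4.93, adjusted p = 8.70e-04, edgeR).

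Ncf4 encodes p40phox, which binds the phosphoinositide PI3P on phagosomes (chromosome 15, 78244164 to 78262582). It had low counts in CML cells, with 3.92, 5.94, 4.03 and 6.15 CPM from 29, 31, 21 and 45 counts. In CML-TKI 1 to 4 it had 33.4, 121, 119.8 and 73.1 CPM. The groups were again apart, by 5.43 times from the lowest CML-TKI to the highest CML library, and the log2 fold change was 4.10 (standard error 0.45, 95% interval 3.09 to 5.10, adjusted p = 8.70e-04, edgeR).

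For Cybb, Ncf1 and Ncf4 the call held in all 22 other fits, with log2 fold changes from 4.34 to 5.21, from 3.44 to 4.21 and from 3.88 to 5.08. When CML 1, 2 and 3 were summed to 1 library, the fit that left the fewest genes called, the adjusted p were 0.0385, 0.0346 and 0.0385. Without CML-TKI 1 they were lower than with it, and that library held the lowest level of all 5 members in its group.

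Cyba encodes p22phox, which stabilises gp91phox and offers the docking site for p47phox (chromosome 8, 122424771 to 122432940). It had 16.4, 16.3, 13.6 and 24.6 CPM in CML 1, 2, 3 and 5 and 22.1, 85.6, 49.0 and 46.0 CPM in CML-TKI 1 to 4. CML-TKI 1 lay within the CML range, below CML 5, and the other CML-TKI libraries lay above it. The log2 fold change was 1.51 (standard error 0.41, 95% interval 0.60 to 2.42, adjusted p = 0.0445, edgeR). This call depended on single libraries: it was lost on leaving out any of the libraries other than CML-TKI 1, with adjusted p from 0.0613 (without CML 5) to 0.133 (without CML 3), and was 0.00608 without CML-TKI 1.

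Rac2, the Rac GTPase of blood cells and the switch that turns the assembled complex on, was already abundant in CML cells (chromosome 15, 78559169 to 78572783). It had 156, 138, 134 and 218 CPM in CML 1, 2, 3 and 5. CML-TKI 1 had 109 CPM, the lowest of all 8 libraries, while CML-TKI 2, 3 and 4 had 285, 302 and 305 CPM, each above every CML library. The log2 fold change of 0.63 (standard error 0.33, 95% interval -0.11 to 1.37) did not pass the test (adjusted p = 0.269, edgeR). Without CML-TKI 1 it was 0.88 with an adjusted p of 0.0224, so 1 library decided this call.

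**Figure D2:**
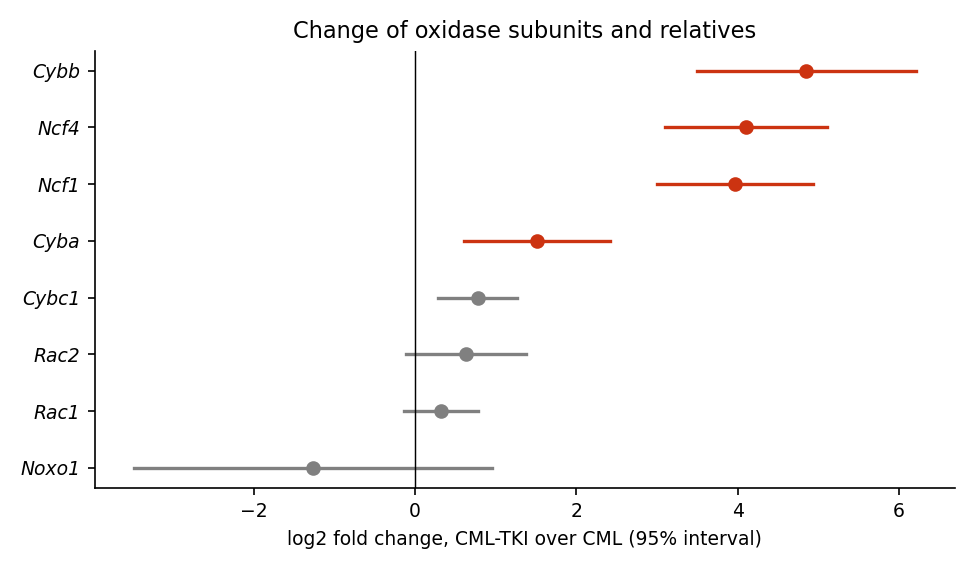
Log2 fold change of CML-TKI over CML with its 95% interval from edgeR for the 5 members, their partners and Noxo1, in red where the adjusted p was under 0.05 and grey otherwise. Cybb, Ncf4 and Ncf1 lie between 3.97 and 4.85, Cyba at 1.51, and the intervals of Rac2, Rac1 and Noxo1 include 0.

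Cybc1 and Rac1, which are no members, were read beside them. Cybc1, the chaperone needed for gp91phox and p22phox to mature, was higher in every CML-TKI library, at 112 to 194.9 CPM against 85.4 to 106 CPM, without passing the test (log2 fold change 0.77, adjusted p = 0.0535, and 0.0110 without CML-TKI 1). Exons of Cybc1 and of Rac1 overlap those of a gene on the opposite strand, and whether strand was used in counting is not given. Rac1, the widespread paralog of Rac2, had 269 ± 29.3 CPM and 335 ± 64.5 CPM (SD, n = 4 each) and a log2 fold change of 0.32 (95% interval -0.14 to 0.77, adjusted p = 0.370).

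Levels were compared between genes per kilobase of merged annotated exons (GENCODE M21, GRCm38), a length that may differ from the transcripts the authors counted on. In CML cells the mean level per kilobase was 53.2 ± 12.7 for Rac2 and 23.8 ± 6.38 for Cyba, but 4.85 ± 1.48 for Ncf1, 3.42 ± 0.82 for Ncf4 and 2.95 ± 1.67 for Cybb (CPM per kilobase, SD, n = 4). The lowest library of Cyba (18.3) was above the highest of Cybb (4.85), Ncf1 (6.53) and Ncf4 (4.198), whose ranges overlapped. In CML-TKI cells the same means were 84.7 ± 45.9 for Cybb, 82.4 ± 31.1 for Rac2, 75.7 ± 37.0 for Ncf1, 68.1 ± 35.2 for Cyba and 59.3 ± 28.6 for Ncf4, and no neighbours in this order differed beyond their spread. The 3 scarce genes of CML cells thus had ranges that overlapped those of Cyba and Rac2 in CML-TKI cells.

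Ratios of counts within a library, which need no scaling between libraries, were compared for 3 pairs. The count ratio of Cybb to Cyba, the chains of the flavocytochrome, was 0.66, 1.07, 1.69 and 0.20 in CML 1, 2, 3 and 5 and 6.24, 7.84, 7.81 and 8.94 in CML-TKI 1 to 4. It was higher in every CML-TKI library and nearly constant among them. The difference of the log2 means was 3.46, and the exact two-sided permutation test gave p = 0.0286, the smallest that 4 against 4 libraries allow, and 0.0857 after adjustment over the 3 ratios. CML-TKI 1, which had the lowest level of both genes in its group, thus kept a ratio far above the CML libraries. The ratio of Ncf1 to Ncf4 was 1.42 to 4.58 in CML and 1.299 to 4.19 in CML-TKI, and the groups did not separate (difference of log2 means -0.095, exact permutation p = 0.886). The ratio of Rac2 to Rac1 ran from 0.50 to 0.70 in CML and more widely, from 0.36 in CML-TKI 1 to 1.17 in CML-TKI 4, in treated mice (difference 0.25, exact permutation p = 0.543, adjusted 0.814).

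**Figure D3:**
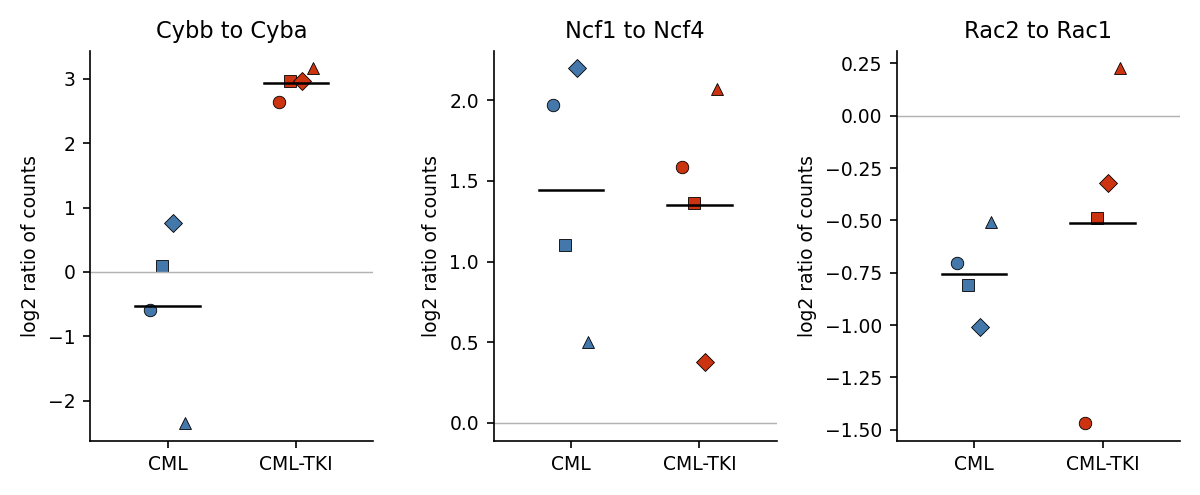
Log2 ratio of counts of 2 genes in each library for Cybb to Cyba, Ncf1 to Ncf4 and Rac2 to Rac1, with the group mean as a line and the point shapes in the order CML 1, 2, 3, 5 and CML-TKI 1, 2, 3, 4 (circle, square, diamond, triangle). The Cybb to Cyba ratios form separate groups, and the other ratios overlap.

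Other members of the NADPH oxidase family had low counts. Of 9 such genes, 4 were in the table and 1, Noxo1, was tested. Noxo1, the organizer of Nox1, had 12, 14, 20 and 25 counts in CML and 15, 4, 0 and 0 in CML-TKI 1 to 4 (log2 fold change -1.27, adjusted p = 0.466). Nox4 had 2 to 11 counts in the CML libraries and 0 in all CML-TKI libraries, Noxa1 had 7 to 21 counts and 1 count in a single CML-TKI library, and Duox1 had at most 3 counts. These 3 genes had too few counts to be tested. Exons of Noxo1 and Noxa1, too, overlap those of a gene on the opposite strand. Cybb was the only catalytic chain of the family with more than 11 counts in any library of this table.

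The genes around the oxidase were read from lists chosen with earlier results of these data known, and counts are given beside the 10.2% of all genes called in either direction. The list of Rac and Rap control has 17 genes and also holds the GTPases Rap1a and Rap1b and the kinases Pak1 and Pak2. Of the 17 genes, 4 rose and 0 fell, with a median log2 fold change of 0.31. The count of 4 was 1 when scaled by totals without Rn45s, 2 by upper quartile and 0 with CML 1, 2 and 3 summed. They were Arhgdib and Arhgdia (1.26 and 0.90), which hold Rac inactive in the cytosol, Racgap1 (0.91), a GTPase-activating protein of dividing cells, and Tiam1 (0.89), a Rac exchange factor. Each of these 4 calls was lost on leaving out at least 2 of the libraries, among them CML 1 and CML 2 in each case, with adjusted p up to 0.0692 for Racgap1 and 0.132 for Arhgdib. Without CML-TKI 1, 7 genes of the list were called higher. Arhgap25, a GTPase-activating protein for Rac, had a log2 fold change of -0.83 (adjusted p = 0.248, and 0.0212 without CML-TKI 3), and limma-voom and DESeq2 each called 1 gene of the list lower. The exchange factors Vav1, Prex1 and Dock2, which load Rac2 in neutrophils, had log2 fold changes of 0.18, 0.22 and 0.25 (adjusted p = 0.722, 0.502 and 0.742). Vav2 had 0.31 (adjusted p = 0.733) and Vav3 0.98 (adjusted p = 0.121, and 0.0164 without CML-TKI 1). Bcr, the fusion partner of ABL and itself a GTPase-activating protein for Rac, had 106 ± 14.2 CPM and 107 ± 45.6 CPM (SD, n = 4 each, adjusted p = 0.981), with a sign that changed between fits. Rap1a, which copurifies with the flavocytochrome, had a log2 fold change of 0.70 (adjusted p = 0.252, and 0.0444 without CML-TKI 1). Its more abundant paralog Rap1b went the other way, at 530.3 ± 64.2 CPM and 317 ± 116 CPM (SD, n = 4 each), with every CML-TKI library below every CML library (log2 fold change -0.74, adjusted p = 0.120, and 0.0486 without CML-TKI 2).

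Of 15 kinases, lipid enzymes and other factors of activation, 6 rose and 0 fell (median 0.44), and no call was left when CML 1, 2 and 3 were summed. The genes called lower were 1 with totals without Rn45s, upper quartile or DESeq2, and 3 with limma-voom. Prkcd and Prkcb encode the protein kinases C delta and beta, which phosphorylate p47phox, and had log2 fold changes of 1.80 and 2.68 (adjusted p = 0.00650 and 0.0163). Pik3r5, a regulatory subunit of PI3-kinase gamma, rose by 3.11 and Hvcn1, the proton channel that balances the charge moved by the oxidase, by 2.85 (adjusted p = 0.00374 and 0.00799). S100a8 and S100a9, whose protein complex delivers arachidonate to the oxidase and which are also neutrophil markers, rose by 2.84 and 2.89. The calls of Prkcb and S100a8 were lost without any 1 of the CML libraries, and that of S100a9 without CML 1 or CML 2, with adjusted p up to 0.0556, 0.0784 and 0.0510. Syk and Pik3cd did not pass the test (log2 fold changes 0.08 and 0.56), nor did Prkca, Prkce and Pla2g4a, with -0.85, -1.83 and -1.54. Leaving out CML-TKI 1 called Pik3cd higher and Prkce lower (adjusted p = 0.0352 and 0.0335), and leaving out CML-TKI 2 called Pla2g4a lower (0.00745).

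Of 11 phagocyte receptors and receptor chains, most of which can trigger the oxidase, 8 were tested, 7 rose and 0 fell. All 7 had every CML-TKI library above every CML library, which held for 10.3% of all genes tested. The median log2 fold change was 3.53, over the 8 genes with enough counts only. Among these, Fcgr1 and Fcgr3 had 0 to 9 and 1 to 15 counts in the CML libraries. When CML 1, 2 and 3 were summed, 2 of the 7 calls were left, those of Fcgr3 and Fcgr2b. Fcgr3, a low-affinity receptor for IgG, had 0.81, 1.92, 0.19 and 2.05 CPM in CML and 37.4, 183, 139 and 131 CPM in CML-TKI 1 to 4 (log2 fold change 6.58, adjusted p = 8.70e-04). Fcgr2b, the inhibitory receptor of that family, changed by 5.23 and Fcer1g, the signalling chain the activating receptors share, by 3.43. Itgam and Itgb2, the chains of the integrin Mac-1, rose by 3.64 and 1.66, and Clec7a, the beta-glucan receptor dectin-1, by 3.26. Fcgr1 rose by 3.74 (adjusted p = 0.0473), a call that was lost without 6 of the 8 libraries (all but CML-TKI 1 and CML-TKI 4), with adjusted p up to 0.150. C5ar1 had a log2 fold change of 1.64 (adjusted p = 0.154), and Fcgr4 and the formyl peptide receptors Fpr1 and Fpr2 had too few counts to be tested.

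**Figure D4:**
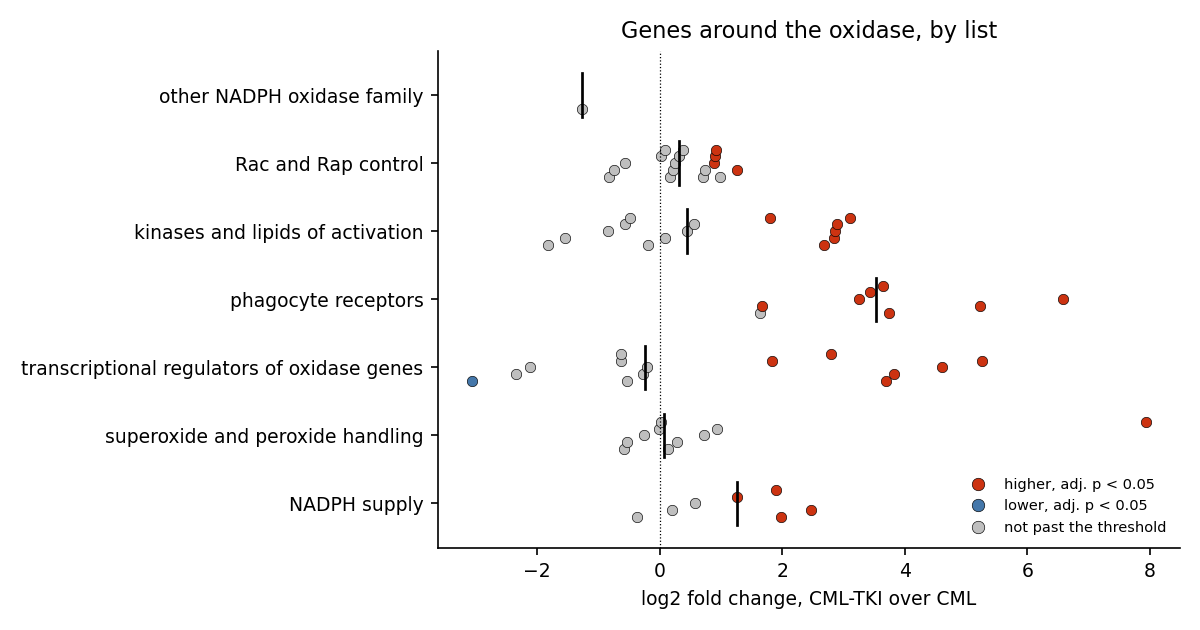
Log2 fold change of CML-TKI over CML for each tested gene of 7 lists around the oxidase, 1 point a gene, with the list median as a vertical bar and colours for genes past an adjusted p of 0.05 in edgeR. The phagocyte receptors have the highest median (3.53), and Meis1 is the only gene called lower.

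Among 14 transcription factors known to act on oxidase genes, 6 rose and 1 fell, with a median of -0.24, and with CML 1, 2 and 3 summed 1 call was left, that of Irf8. Spi1 encodes PU.1, the activator whose core motif is capitalised in the Cybb promoter above, and had 18.3, 13.4, 20.2 and 29.8 CPM in CML and 39.6, 117, 57.7 and 75.7 CPM in CML-TKI 1 to 4 (log2 fold change 1.83, adjusted p = 0.0156). Irf8, a partner of PU.1 in monocytes, had 2.68 to 8.74 CPM in CML and 70.6 to 354 CPM in CML-TKI (log2 fold change 5.26, adjusted p = 8.70e-04). The C/EBP factors of granulocyte and monocyte development rose too, on the log2 scale: Cebpe by 4.61, Cebpa by 3.83, Cebpd by 3.70 and Cebpb by 2.79. Meis1, a partner of HOXA9 in stem cells, fell by 3.07 on the log2 scale (adjusted p = 0.0102), and Hoxa10, described as a repressor of Cybb in myeloid cells, was lower in every CML-TKI library without passing the test (log2 fold change -2.35, adjusted p = 0.202, and 0.00243 without CML-TKI 1). Cebpe was below the floor of 3 counts in CML 1, 2 and 3, and its log2 fold change ran from 4.16 to 6.80 with 1 library left out, the highest without CML 5. Hoxa9 had a log2 fold change of -2.12 with all CML-TKI below all CML libraries (adjusted p = 0.0902, and 0.0161 without CML-TKI 1). The calls of Spi1 and Cebpe were lost without CML 1, CML 2 or CML 3, with adjusted p up to 0.0622 and 0.0571. Runx1, Elf1 and Myb had log2 fold changes of -0.27, -0.63 and -0.21 and did not pass.

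Downstream of the oxidase, 1 of 10 genes that handle superoxide and peroxide rose and 0 fell (median 0.078). It was Mpo, for myeloperoxidase, which turns peroxide into hypochlorous acid in neutrophil granules, with 12.5 ± 10.3 CPM and 3101 ± 1743 CPM (SD, n = 4 each, log2 fold change 7.94, adjusted p = 0.00102). Sod2, Cat and Sod1 had log2 fold changes of 0.025, -0.019 and -0.54, and Prdx6 had -0.59 with every CML-TKI library below every CML library (adjusted p = 0.0974). Gpx1, for glutathione peroxidase, had 236 ± 101 CPM and 454 ± 139 CPM (SD, n = 4 each, log2 fold change 0.94, adjusted p = 0.110) and was called higher without CML-TKI 1 or without CML 5 (lowest adjusted p = 0.0253). Upstream, of 7 tested enzymes of NADPH supply and the pentose phosphate pathway, 4 rose and 0 fell (median 1.27). They were Idh1 by 2.47, G6pdx by 1.97, Pgd by 1.90 and Taldo1 by 1.27 (adjusted p from 0.00368 to 0.00654). G6pdx and Pgd encode the enzymes of the pentose phosphate pathway that reduce NADP. All 4 calls held with each library left out in turn, and none was made when CML 1, 2 and 3 were summed.

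Markers of the granulocyte and monocyte lineages moved with the members. Over all genes tested, 6.29% were called higher in CML-TKI and 3.93% lower. Of 17 neutrophil markers, which include Mpo, S100a8 and S100a9, 16 were tested, 13 rose and 0 fell, and their summed level was 226 to 349.6 CPM in CML and 1573 to 8920 CPM in CML-TKI libraries. Only 6 of the 13 calls held with each library left out in turn (Elane, Mpo, Prtn3, Ctsg, Lcn2 and Chil3), since leaving out CML 1 alone lost those of Camp, Ngp, Mmp8, Csf3r, Retnlg, S100a8 and S100a9, and 4 were left when CML 1, 2 and 3 were summed. The largest changes were in Elane, Mpo, Ctsg and Prtn3 (log2 fold changes 8.26, 7.94, 7.91 and 4.76), granule genes known to be expressed early in granulocyte development. Of genes known from later neutrophil stages, Retnlg, Mmp8, Lcn2, Camp, Ngp and Csf3r rose by 3.40, 2.94, 2.82, 2.63, 2.43 and 1.43, most of them with the losses just given. The others did not pass: Ltf, Cxcr2 and Mmp9 had log2 fold changes of 2.37, 1.75 and 1.17 (adjusted p = 0.101, 0.159 and 0.414, and 0.00229 for Ltf without CML-TKI 1), and Ly6g had too few counts to be tested. Of 12 monocyte and macrophage markers, which include Fcgr1, 10 rose and 0 fell, with sums of 246 to 362 CPM and 1488 to 7656 CPM. Of these calls 7 held with each library left out and 6 with CML 1, 2 and 3 summed. Cd14 lost its call without any of the libraries but CML-TKI 1, Cx3cr1 without CML 2 or CML 5, and Fcgr1 as above. Both sums were lowest in CML-TKI 1 within that group, as were the 5 members, and no marker of these 2 lists was at 0 in all libraries of a group. Of 12 tested HSC markers 5 fell and 0 rose. Without CML-TKI 1, 10 fell, where 1333 of 12147 genes tested were called lower, against 469 of 11937 with that library. Among the 5, the calls of Hlf and Tek did not hold with each library left out (adjusted p up to 0.0875 and 0.0586). Both were lost without CML 1, 2 or 3. Of 6 megakaryocyte markers Gp9 and Itga2b fell, the latter not without CML-TKI 3 or any of the CML libraries. Of 6 mast cell and basophil markers 2 were tested, of which Cpa3 rose, a call lost without 6 of the libraries, and Gata2 fell. Their sum was 255 to 358 CPM in CML and 69.7 to 1222 CPM in CML-TKI, where CML-TKI 4 had 835 CPM of Prss34 and 139 CPM of Mcpt8, which was at 0 in all CML libraries. Of the endothelial markers 1 fell, Cdh5. With CML 1, 2 and 3 summed, 1 HSC call was left, that of Kit, and 0 in the megakaryocyte, mast cell and basophil, and endothelial lists. Of the dendritic, erythroid, B cell, and T and NK cell markers 0 of 3, 7, 1 and 2 tested were called by edgeR. Of these, 0, 3, 0 and 0 had an unadjusted p under 0.05. Without CML-TKI 1, 2 erythroid markers were called higher. Summed levels of the dendritic markers were 34.0 to 47.9 CPM in CML and 23.4 to 100.3 CPM in CML-TKI, and those of the B cell markers 17.8 to 23.2 CPM and 16.8 to 285 CPM. Those of the T and NK cell markers were 4.79 to 10.7 CPM and 0.616 to 99.1 CPM. The erythroid sum was 651 to 827 CPM in CML and reached from 57.6 CPM in CML-TKI 2 to 31547 CPM in CML-TKI 3, the library with the highest B cell and T and NK cell sums as well. Vpreb1 was at 0 in all CML-TKI libraries, and Cd3e, Cd3g and Cd8a in all CML libraries. Whether these marker differences reflect cell makeup, and what part that has in the levels of the oxidase genes, was not tested.

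The genes whose pattern over the 8 libraries was most like that of each member were found among 9290 genes averaging 3 or more on the log2 CPM scale, by the Pearson correlation of log2 CPM. This is a description, since the 8 points fall into 2 groups. Cybb was most like Atp13a3 (r = 0.999), AB124611 (0.998) and Igsf6 (0.993). Ncf1 was most like Ifi209, Nptn and AB124611 (0.994, 0.993 and 0.991), and Ncf4 was most like Tm6sf1, Cfp, which encodes properdin, and Ccr1, a chemokine receptor (0.997, 0.996 and 0.996). Cyba was most like Erp29, Atp1b3 and Gm5424 (0.988, 0.987 and 0.986), and Rac2 was most like Ucp2, Irf2bp2 and Capn1 (0.988, 0.987 and 0.982). Among the members themselves Cybb and Ncf1 were most alike (0.985) and Cybb and Rac2 least (0.55).

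**Figure D5:**
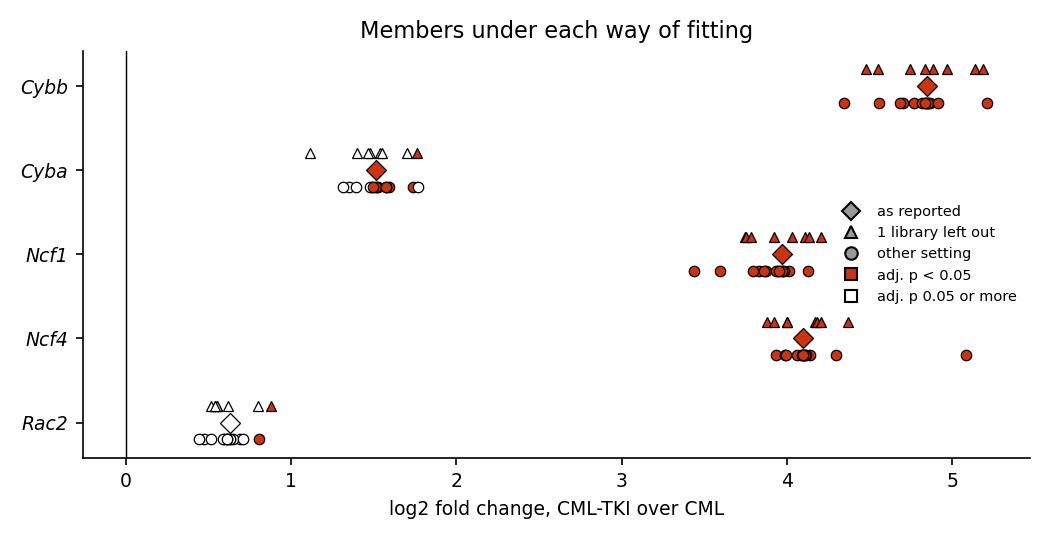
Log2 fold change of each member as reported (diamond), with 1 library left out (triangles) and under the other settings (circles), filled red where the adjusted p was under 0.05. Cybb, Ncf1 and Ncf4 stay filled throughout, Cyba is filled in 9 of 22 alternatives and Rac2 in 2 of 22.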

How the data were processed

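RNA of sorted bone marrow cells was isolated with RNeasy Plus kits and made into Nextera XT libraries. The authors aligned paired reads to mm10 with STAR 2.6.1d and then estimated counts on RefSeq transcript models with Partek Flow (8.0 by the submitters' processing notes). The deposited values are estimated counts per gene, not normalized, and 7.74% to 21.9% of a library's values were not whole. No strand setting is stated. Symbols of 20 genes had become dates, and 4 values, all of Rn45s, were in exponent form. Columns were matched to labels by group and number, and CML 5 by group alone.

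Expected counts were rounded and tested in R 4.3.3 with edgeR 4.0.16 (TMM, filterByExpr with minimum count 10 and minimum total 15, robust quasi-likelihood test, Benjamini-Hochberg over 11937 genes, threshold 0.05). Log2 CPM used a prior count of 2, and ratios had 0.5 added to each count. Library totals ran from 1041552 to 8620101. The script was tested on simulated data. Alternatives used DESeq2 1.42.0, limma 3.58.1 (voom with quality weights), other scalings, filters, thinning and sets of libraries. Counts of CML 1, 2 and 3 differed from each other by 3.56 to 4.79 times sampling variance (chi-square per degree of freedom), against 23.9 to 60.6 for other pairs of a group. They exceeded sampling noise and were kept as 3 libraries, which does not show that they came from separate animals.

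The members and lists were chosen with earlier results of these data known. Genes were named by rule: the members, the oxidase lists, up to 5 called genes a direction in each other list, Bcr and Rap1a, the 3 genes most like each member, and markers. Prkcd, Itgb2, Clec7a, Spi1, Rap1b, Arhgap25, Hoxa9, Gpx1, Vav1, Prex1, Dock2 and the other genes given without a call were chosen after their values were seen. A further gene of these lists is not reported here.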

Additional observations from a re-analysis of the deposited data

Results flagged for a closer look

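In 22 groups of 4 values, 1 had a library far from the other 3 by Dixon's test, where about 1.1 would be flagged by chance. It was Rac2 in CML-TKI cells: CML-TKI 1 had 109 CPM and the nearest other library 285 CPM, a gap of 0.899 of the group's range, above the 95% critical value for 4 samples.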

How the results depend on the processing

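The calls of Cybb, Ncf1 and Ncf4 held in all 22 alternatives, and no member changed sign in any of them. With each library left out in turn, log2 fold changes ran from 4.48 to 5.19 for Cybb, 3.74 to 4.21 for Ncf1, 3.88 to 4.37 for Ncf4, 1.12 to 1.76 for Cyba and 0.51 to 0.88 for Rac2, and the number of genes past the threshold from 505 to 2504. Cyba lost its call when scaled by totals without Rn45s (1.35, adjusted p = 0.0619) or by upper quartile (1.39, 0.0609), without a filter on low counts (1.48, 0.0583), with CML 1 to 3 summed (1.31, 0.371), and with libraries 1 to 3 of both groups, where fewer samples were used (1.77, 0.0971). Rac2 gained a call with limma-voom (0.80, adjusted p = 0.0241). The number of genes called, 1220 as reported, was 122 with CML 1 to 3 summed, 589 with libraries 1 to 3 of both groups, 2563 with limma-voom and 2157 with DESeq2 (1249 higher and 1314 lower with limma-voom), and the cause was not tested.

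Whether numbers shared by the groups pair the libraries was not settled. Deviations of same-numbered libraries correlated at -0.022, 0.15 and 0.091, and those of libraries with different numbers at -0.18 to 0.083. With 3 libraries a group these values cannot exclude a pairing. With the replicate block on libraries 1 to 3, 193 genes were called, and Cybb, Cyba, Ncf1, Ncf4 and Rac2 had 4.34, 1.57, 3.44, 4.11 and 0.59 (adjusted p = 0.0259, 0.197, 0.0429, 0.0368 and 0.474). With the block 0 genes were called in the lists of kinases and lipids, NADPH supply and Rac and Rap control, and 3 among phagocyte receptors.

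The ratio of Cybb to Cyba differed by 2.85 to 3.88 with 1 library left out, that of Ncf1 to Ncf4 by -0.41 to 0.23 and that of Rac2 to Rac1 by -0.00077 to 0.56. The Ncf1 to Ncf4 difference turned positive without CML-TKI 3 (0.23), CML 1 (0.081) or CML 3 (0.16). Bcr, never called, was below 0 with RLE (-0.0015), totals without Rn45s (-0.12), upper quartile (-0.081), no filter (-0.018), thinning (-0.018), libraries 1 to 3 with the block (-0.40) and without it (-0.40), DESeq2 (-0.00093), and without CML-TKI 4 (-0.33) or CML 5 (-0.079). Of the 45 genes outside the members that the naming rule for the pathway lists and likeness gave, Bcr alone changed sign, and 28 of the 35 called ones lost the call in at least 1 of the 22 alternatives. Markers and genes named after their values were seen were run only with libraries left out and with CML 1 to 3 summed. Depth limits Nox4, Noxa1 and Duox1, which were not tested.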
